A study of Mus musculus with 24 samples.

Results

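The 10 nuclear complex IV subunit genes described here are *Cox4i1*, *Cox5a*, *Cox5b*, *Cox6a1*, *Cox6b1*, *Cox6c*, *Cox7a2*, *Cox7b*, *Cox7c* and *Cox8a*. They were taken by symbol from the table of normalized counts, which holds 15456 genes, and each symbol stood for 1 gene. All 10 passed the minimum mean of 10 normalized counts that left 14974 genes for testing. The RNA came from the medial prefrontal cortex (mPFC) of 24 male mice, labelled as strain BALB/C and postnatal week 11 and named BALB/c OlaHsd in the methods, with 1 library per mouse and 6 mice in each of 4 groups. The controls carry the label of no treatment and were given PBS according to the methods. The duloxetine group received daily i.p. duloxetine, an antidepressant of the serotonin and norepinephrine reuptake inhibitor class, at 10 mg per kg according to the methods. The *R. flavefaciens* group received this gut bacterium by gavage, daily for 3 days at the start according to the methods and then 2 times a week, and the last group received both treatments. Treatments ran for at least 21 days. Reads recovered from the normalized counts ranged from 12811413 to 15607343 per mouse.

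Complex IV, or cytochrome c oxidase, is the last enzyme of the mitochondrial respiratory chain. It takes electrons from cytochrome c, reduces oxygen to water and pumps protons across the inner membrane. Its catalytic subunits are encoded by the mitochondrial genome as *mt-Co1*, *mt-Co2* and *mt-Co3*, and the surrounding subunits, which stabilize and regulate the enzyme, are encoded in the nucleus and imported. Neurons depend heavily on this enzyme, and its activity has long been used to map the energy use of brain regions.

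The member genes lie on 9 chromosomes of GRCm38, with *Cox5a* and *Cox7a2* both on chromosome 9. The 2 members with the largest difference between *R. flavefaciens* and control, *Cox8a* and *Cox7c*, and the one with the smallest, *Cox5a*, are shown by the sequence before their transcription start, with *Cox6a1* as the member that holds matches to the motif of NRF1, a regulator of respiratory genes. The sequences are from RefSeq on GRCm38.p6, a C57BL/6J reference and not the BALB/C strain, and run 5′ to 3′ in the direction of the gene. Bases inside annotated exons were left out. Capitals mark the letters of the motifs, which were GCGC, any pair of bases and GCGC for NRF1, CGGAAG for GABPA, ATGGCGG for YY1 and GGGCGG for SP1, searched on both strands.
Cox8a, chr19:7217617-7217866, minus strand: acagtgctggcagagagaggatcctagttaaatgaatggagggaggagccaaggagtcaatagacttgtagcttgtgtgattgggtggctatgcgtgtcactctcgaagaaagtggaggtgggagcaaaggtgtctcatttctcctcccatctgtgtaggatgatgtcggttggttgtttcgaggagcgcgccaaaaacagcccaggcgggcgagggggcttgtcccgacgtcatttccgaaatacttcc
Cox7c, chr13:86046905-86047045, minus strand: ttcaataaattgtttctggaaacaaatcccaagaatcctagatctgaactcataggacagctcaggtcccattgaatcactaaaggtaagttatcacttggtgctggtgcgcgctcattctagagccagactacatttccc
Cox5a, chr9:57520982-57521231, plus strand: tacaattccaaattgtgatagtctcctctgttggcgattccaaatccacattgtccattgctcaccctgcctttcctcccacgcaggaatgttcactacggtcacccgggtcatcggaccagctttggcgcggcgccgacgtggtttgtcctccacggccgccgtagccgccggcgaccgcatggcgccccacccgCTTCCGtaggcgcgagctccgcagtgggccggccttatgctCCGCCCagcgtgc
Cox6a1, chr5:115348982-115349129, minus strand: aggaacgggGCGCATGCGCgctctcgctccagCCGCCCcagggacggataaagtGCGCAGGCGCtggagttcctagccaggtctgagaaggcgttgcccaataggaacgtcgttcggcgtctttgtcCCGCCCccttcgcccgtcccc
Promoters of 8 members were in the RefSeq table, all but those of *Cox4i1* and *Cox6c*. Within the 250 bases before the start, 1 of the 8 held the NRF1 letters, which stood in 4.97% of 32817 promoters. The GABPA letters were in 3 of the 8 (13.6% of all promoters), the SP1 letters in 3 (32.7%) and the YY1 letters in 0 (2.21%). *Cox8a*, *Cox7c*, *Cox5b* and *Cox7b* held none of the 4 motifs in this window. *Cox5a* held 1 match each for GABPA and SP1. *Cox6a1* held 2 matches for NRF1, 2 for SP1 and 1 for GABPA, the last in the bases left out. These matches describe the letters and were not tested for binding.

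All 10 members were abundant, with 715 to 6034 recovered reads per mouse. Per kilobase of transcript, the control levels fell into steps. *Cox6a1* (5415 ± 429 normalized counts per kb, SD, n = 6), *Cox8a* (5368 ± 374) and *Cox4i1* (5326 ± 186) were highest and lay within each other's spread. *Cox6c* followed with 3169 ± 167. *Cox7c* (2502 ± 120) and *Cox6b1* (2435 ± 68.9) were again within their spread. *Cox7a2* had 1610 ± 46.6, ahead of *Cox5b* (1334 ± 56.7) and *Cox5a* (1239 ± 79.5), which differed by about their spread, and *Cox7b* was lowest with 968 ± 28.0. These levels per kb rest on 1 annotated transcript per gene and on reads counted by the authors. Exons of *Cox4i1*, *Cox5a* and *Cox6c* overlap those of *Emc8*, *Gm26631* and *Vps13b* on the opposite strand by 154, 269 and 250 bases, and strand use in the counting was not stated.

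The first question was whether complex IV genes differed between *R. flavefaciens* treated mice and controls. All 10 members had a higher mean after the bacterium, and 1 of them, *Cox8a*, rose past an adjusted p of 0.05. *Cox8a* encodes the ubiquitous form of the small single-span subunit VIII, and its gene (ENSMUSG00000035885.4) lies on the minus strand of chromosome 19, from 7215158 to 7217616 in the authors' table. GENCODE vM21, which gave the transcript lengths, has the gene from 7215153 to 7217616. In the control mice it had 2626, 2821, 2929, 3059, 3087 and 3193 normalized counts. In the *R. flavefaciens* mice it had 3397, 3655, 3661, 3744, 3798 and 4603. Every treated mouse was above every control mouse, and mouse 9_3 stood well above the other treated mice. The log2 fold change of *Cox8a* was 0.36 (95% interval 0.23 to 0.50, standard error 0.065, adjusted p = 0.0261 from limma), which is a 1.29-fold higher value. The exact permutation test gave p = 0.00216, two-sided, the smallest that 6 mice against 6 allow. Any gene whose groups do not overlap gets this exact p, and *Cox6b1*, *Cox7b* and *Cox7c* had it too in this comparison. In bulk tissue, more RNA per cell and more cells of a type cannot be told apart.

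*Cox7c*, another single-span subunit (chromosome 13, 86044816 to 86046904, minus strand), had the next largest difference. Its control values were 1263, 1310, 1318, 1375, 1406 and 1433 normalized counts. Its values after *R. flavefaciens* were 1485, 1561, 1584, 1703, 1754 and 2165. These groups did not overlap either, the log2 fold change was 0.33 (standard error 0.067), and the limma adjusted p was 0.0687, short of the threshold.

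*Cox4i1* and *Cox5a* had the smallest differences. *Cox4i1* encodes the common form of subunit IV, the largest nuclear subunit, from chromosome 8 (120668222 to 120674207, plus strand), and had 3919, 3998, 4003, 4024, 4224 and 4277 normalized counts in controls. In *R. flavefaciens* mice it had 4097, 4115, 4214, 4726, 4755 and 6140. Of these 6 mice 3 were above every control, and the highest value was again that of mouse 9_3. The log2 fold change of *Cox4i1* was 0.18 (standard error 0.071, limma adjusted p = 0.157). It was 0.10 without mouse 9_3 and 0.024 with a trend on transcript length removed. *Cox5a*, which encodes a subunit on the matrix side, from chromosome 9 (57521274 to 57532426, plus strand), had 754, 764, 774, 791, 816 and 894 in controls and 754, 813, 832, 860, 988 and 1002 after the bacterium. The 2 groups overlapped over most of their range, and the log2 fold change was 0.13 (SE 0.059, adjusted p = 0.241 from limma).

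The other 6 members lay between these. *Cox6a1* (chromosome 5, 115345642 to 115348981, minus strand), the common isoform of subunit VIa, went from a control mean of 3092 ± 245 to 3767 ± 599 normalized counts (SD, n = 6). *Cox6b1* (chromosome 7, 30616861 to 30626151, minus strand), a subunit on the side that faces cytochrome c, went from 1505 ± 42.6 to 1776 ± 292, and its lowest treated value, 1587, was above the highest control value, 1550. *Cox6c* (chromosome 15, 35925886 to 35938246, minus strand) had means of 1594 ± 83.8 and 1933 ± 259. *Cox7a2* (chromosome 9, 79755361 to 79759878, minus strand), the common isoform of subunit VIIa, had 1061 ± 30.7 and 1224 ± 178. *Cox7b* (chromosome X, 106015700 to 106022450, plus strand), a small membrane subunit, had 969 ± 28.0 and 1162 ± 144 with no overlap between groups. *Cox5b* (chromosome 1, 36691484 to 36693681, plus strand), the subunit that binds zinc, which GENCODE vM21 starts at 36691449, had 1154 ± 49.0 and 1331 ± 170. The spread between mice was larger in the *R. flavefaciens* group than in controls for each of these 6 genes. Much of it came from mouse 9_3, without which the SD was 92.8 for *Cox6b1* and 98.5 for *Cox6c* (n = 5). For *Cox6a1*, *Cox7a2*, *Cox7b* and *Cox5b* it was then 323, 81.8, 82.9 and 91.6. Without this mouse the SD was still above that of the controls for each of the 6 genes.

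**Figure D1:**
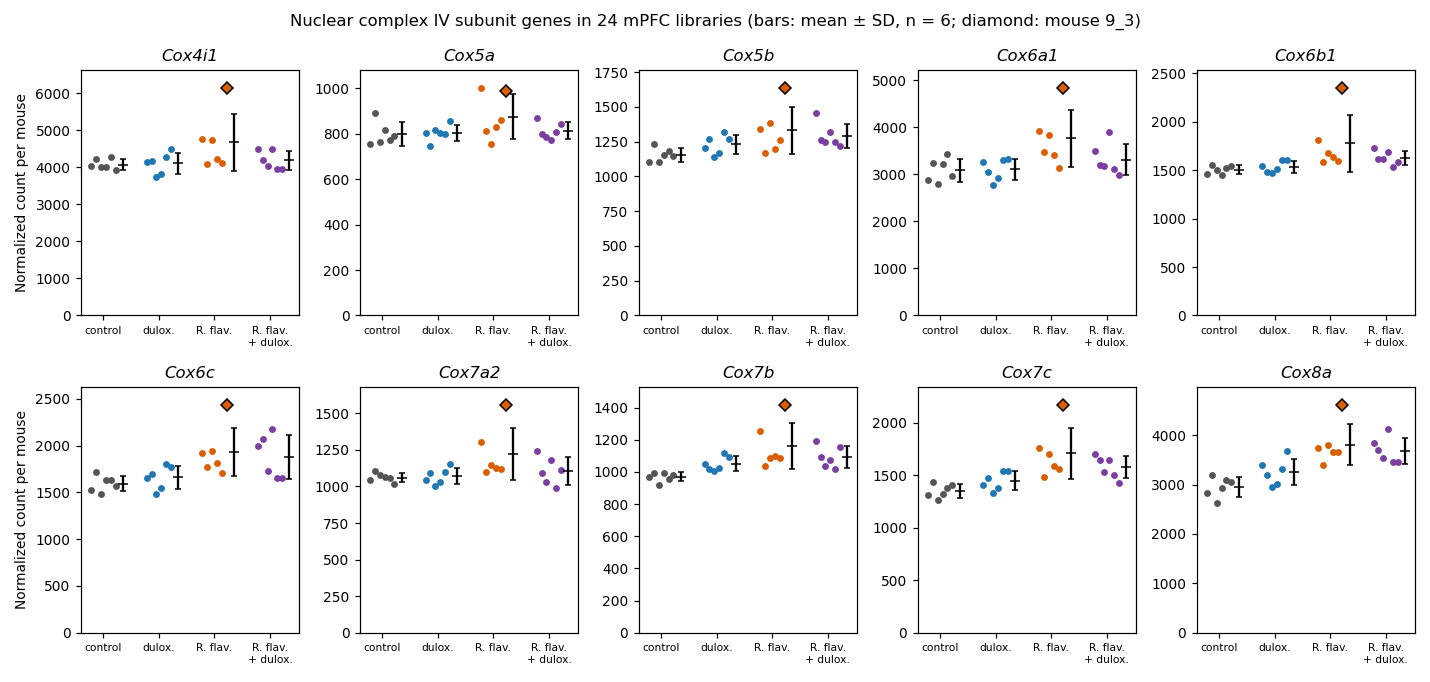
Normalized counts (y axis, from 0) of the 10 complex IV subunit genes in each mouse of the 4 groups (x axis), with the mean and SD of 6 mice beside the points and mouse 9_3 drawn as a diamond. The 6 *R. flavefaciens* values of *Cox8a* sit between 3397 and 4603, above all control values, and mouse 9_3 is highest in every panel except *Cox5a*, where mouse 7_2 is at 1002.

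Over the 10 members the median log2 fold change of *R. flavefaciens* against control was 0.24, from 0.13 to 0.36, while that of all tested genes was 0.0031. An adjusted p under 0.05 from limma was reached by 1 of 10 members and by 0.0267% of all tested genes. An unadjusted p under 0.05 with a higher value was reached by 10 of 10 members and by 8.86% of all tested genes. Groups without any overlap, with every treated mouse above every control mouse, were seen for 4 members (*Cox6b1*, *Cox7b*, *Cox7c* and *Cox8a*) and for 0.788% of all tested genes. Members are not replicates of a treatment, and they moved together from mouse to mouse. DESeq2 on the recovered reads called 7 members, all but *Cox4i1*, *Cox5a* and *Cox7a2*, among 488 genes in all, whereas edgeR's quasi-likelihood test called 4 genes in all and 1 member. A fit of only these 2 groups called 0 members, with an adjusted p of 0.185 for *Cox8a* from limma. With a trend on transcript length removed, the members' median was 0.062, 0 members were called and *Cox5a* was below 0. Leaving out 1 mouse ended the *Cox8a* call in 8 of 24 fits, namely without control mouse 1_1, 2_2, 2_3, 3_1 or 3_3 or *R. flavefaciens* mouse 7_2, 8_4 or 9_3, with log2 fold changes from 0.31 to 0.40 and adjusted p-values from 0.0140 to 0.131 over the 24 limma fits.

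Against control, the mice that received both treatments also had a higher mean of all 10 members, and *Cox8a* was again the gene called. *Cox8a* rose, with 3446, 3451, 3530, 3692, 3842 and 4124 normalized counts, again above every control mouse. Its log2 fold change was 0.32 (standard error 0.065, limma adjusted p = 0.0438), and the exact permutation test gave p = 0.00216, the smallest it can give. *Cox7b* was the only other member without overlap, at 1016 to 1192 against 919 to 995 in controls, and so had the same exact p. Its log2 fold change was 0.17 (adjusted p = 0.163 from limma). *Cox6c* had a mean of 1878 ± 230 (log2 fold change 0.23), *Cox7c* of 1575 ± 104 (0.22) and *Cox5b* of 1292 ± 88.2 (0.16). The values of *Cox4i1* and *Cox5a*, at 3947 to 4500 and 773 to 870 normalized counts, overlapped those of the controls widely, and their log2 fold changes were 0.038 and 0.028. *Cox6a1*, *Cox6b1* and *Cox7a2* had log2 fold changes of 0.098, 0.11 and 0.058, each with an interval that included 0. With single mice left out, these values ran from 0.049 to 0.13, 0.093 to 0.13 and 0.024 to 0.091. *Cox4i1* then ran from 0.017 to 0.055 and *Cox5a* from 0.0085 to 0.061.

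The members' median log2 fold change in this comparison was 0.14, beside 0.0007 for all tested genes. Adjusted p-values under 0.05 were found for 1 of 10 members and 0.10% of all genes. Unadjusted p-values under 0.05 with a higher value were found for 5 of 10 members and 8.08% of all genes, and 2 members and 0.882% of all genes did not overlap between the groups. Both comparisons use the same 6 control mice, so they are not independent of each other. Leaving out single mice ended the *Cox8a* call in 15 of 24 fits, with limma adjusted p-values from 0.00848 to 0.141 and log2 fold changes from 0.28 to 0.34. With a trend on transcript length removed, the members' median was 0.029, and *Cox4i1*, *Cox5a*, *Cox6a1*, *Cox6b1* and *Cox7a2* were below 0.

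**Figure D2:**
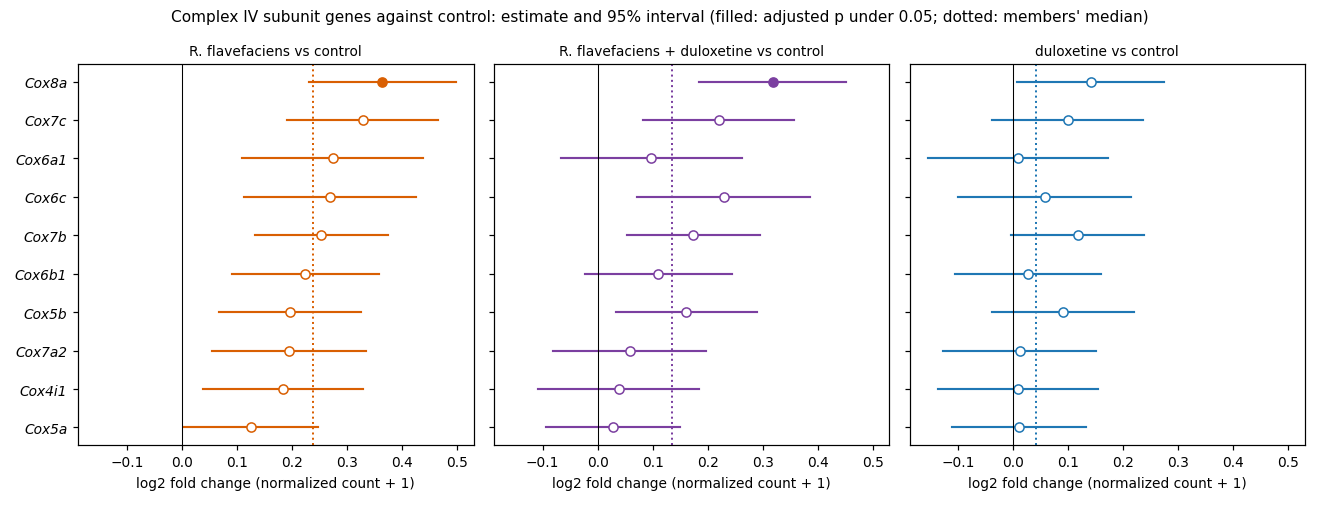
Log2 fold change with its 95% interval (x axis) of each complex IV subunit gene (y axis, ordered by the *R. flavefaciens* comparison) against control, in 1 panel for each treated group. Filled points passed an adjusted p of 0.05, which only *Cox8a* did, with 0.36 after *R. flavefaciens* and 0.32 after both treatments, and dotted lines give the members' medians of 0.24, 0.14 and 0.042.

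Duloxetine alone gave small differences. The members' median log2 fold change against control was 0.042, from 0.0083, the value of *Cox6a1* and *Cox4i1*, to 0.14 for *Cox8a*. This median ranged from 0.023 to 0.065 with single mice left out, lowest without mouse 6_2 and highest without mouse 5_4, and was -0.028 with a trend on transcript length removed, where 6 of 10 members were below 0. *Cox8a* had 2955, 3013, 3187, 3322, 3390 and 3674 normalized counts, of which 3 were above every control value. *Cox7b* had 1008 to 1121, above every control mouse, and its log2 fold change was 0.12 (SE 0.059, adjusted p = 0.9996 from limma). Its exact permutation test also gave p = 0.00216. The other members overlapped the controls. Limma called 0 members and 0% of all genes at an adjusted p under 0.05. At an unadjusted p under 0.05 and a higher value there was 1 member, *Cox8a*, beside 2.20% of all genes, and 1 member did not overlap, beside 0.167% of all genes. DESeq2 called 0 members and 1 gene in all.

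The next question was what the bacterium added to duloxetine. Between the combined and the duloxetine group the median log2 fold change of the members was 0.077, and all 10 were above 0. *Cox8a* had 0.18 (standard error 0.065, limma adjusted p = 0.816) and *Cox6c* 0.17 (standard error 0.076, limma adjusted p = 0.816). No member and 0% of all genes had an adjusted p under 0.05, while 2 members and 3.02% of all genes had an unadjusted p under 0.05 and a higher value. With a trend on transcript length removed, the median was 0.024 and 3 members were below 0.

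Between the combined and the *R. flavefaciens* group the direction was opposite, with a median log2 fold change of -0.10 and all 10 members lower in the combined group. *Cox6a1* had the lowest value, -0.18 (standard error 0.080, limma adjusted p = 0.221), and it was the 1 member with an unadjusted p under 0.05, beside 9.90% of all genes that were lower at this level. Adjusted p-values under 0.05 were found for 0 members and 2.23% of all genes. Without mouse 9_3 this median was -0.035, and *Cox5b*, *Cox6c* and *Cox8a* were then slightly higher in the combined group. With a trend on transcript length removed it was -0.050, and the same 3 genes were above 0.

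The test of the difference itself, the interaction of the 2 treatments, had a median log2 value of -0.15 over the members, from -0.21 for *Cox7c* to -0.097 for *Cox6c*. It called 0 members and 0% of all genes, and 2 members (*Cox7b* and *Cox7c*) and 3.67% of all genes were lower at an unadjusted p under 0.05. For *Cox8a* the interaction was -0.19 with a 95% interval from -0.38 to 0.0022 (limma adjusted p = 0.647). The median interaction was -0.075 without mouse 9_3 and -0.039 with the length trend removed, where *Cox5a* and *Cox6c* were above 0. No member passed the threshold for a response to the bacterium that differed with duloxetine.

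Averaged over mice with and without duloxetine, *Cox8a* was higher after *R. flavefaciens* by 0.27 on the log2 scale (SE 0.046, adjusted p = 0.0173 from limma). The members' median was 0.15, beside 0.0028 for all genes, and with the length trend removed it was 0.047, with *Cox5a* below 0. Here 1 of 10 members and 0.0267% of all genes had an adjusted p under 0.05, and 9 of 10 members, all but *Cox5a*, and 7.68% of all genes were higher at an unadjusted p under 0.05. *Cox7c* (0.23, limma adjusted p = 0.0891) and *Cox6c* (0.22, limma adjusted p = 0.0983) followed *Cox8a*. The *Cox8a* call was kept in 23 of 24 fits that left out 1 mouse and lost without duloxetine mouse 5_4 (adjusted p = 0.0517 from limma).

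The members varied together among mice of the same group. After the group means were taken off, the 45 pairs of members had a median Pearson r of 0.81 over 24 mice, from 0.32 (*Cox5a* and *Cox6c*) to 0.93 (*Cox4i1* and *Cox7c*). Without mouse 9_3 the median was 0.69 over 23 mice. The genes outside the members that followed their mean most closely were *Selenof* (r = 0.96), *Usmg5* (0.93), *Fis1* (0.93), *Uqcr10* (0.93) and *Selenow* (0.93), while the median r of all tested genes was 0.020. Without mouse 9_3 the 5 nearest were *Selenow* (0.93), *Selenof* (0.93), *Uqcc2* (0.88), *Atp5j* (0.88) and *Fis1* (0.87). The values of 1 mouse share a library and its depth, and these coefficients are given as a description.

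As a share of all normalized counts, the 10 members together made up 0.131% ± 0.0047 in controls, 0.136% ± 0.0085 after duloxetine, 0.159% ± 0.025 after *R. flavefaciens* and 0.147% ± 0.0096 after both (SD, n = 6 each). Mouse 9_3 was at 0.206%, and the other 5 *R. flavefaciens* mice were between 0.141% and 0.163%. The control mice were between 0.125% and 0.137%, below all 6 *R. flavefaciens* mice. Without mouse 9_3 the members' median log2 fold change of *R. flavefaciens* against control was 0.17, and 0 members were called, with an adjusted p of 0.0726 for *Cox8a* from limma.

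The catalytic subunits encoded by the mitochondrial genome showed another order of groups. *mt-Co1* had 146971 ± 9648 normalized counts in controls (SD, n = 6), 168548 ± 18991 after duloxetine, 159131 ± 19042 after *R. flavefaciens* and 179403 ± 24261 after both. Against control, *mt-Co3* had a log2 fold change of 0.24 after duloxetine, 0.26 after *R. flavefaciens* and 0.35 after both (limma adjusted p = 0.9996, 0.129 and 0.0897). *mt-Co2* had 0.23, 0.20 and 0.32 (limma adjusted p = 0.9996, 0.265 and 0.125). Without mouse 9_3 the *R. flavefaciens* means of *mt-Co1*, *mt-Co2* and *mt-Co3* were 152479, 56554 and 55709 (n = 5). Mouse 9_3 had 192395, 80102 and 70850. None of the 3 genes passed the threshold of limma in any comparison, DESeq2 on recovered reads called *mt-Co2* and *mt-Co3* after both treatments and *mt-Co3* in the averaged comparison, and the difference between the nuclear and the mitochondrial genes was not tested. After a loess trend on transcript length was taken out of each mouse's values, the median log2 fold change of these 3 genes went from 0.23 to 0.17 after duloxetine, from 0.20 to 0.025 after *R. flavefaciens* and from 0.32 to 0.24 after both.

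**Figure D3:**
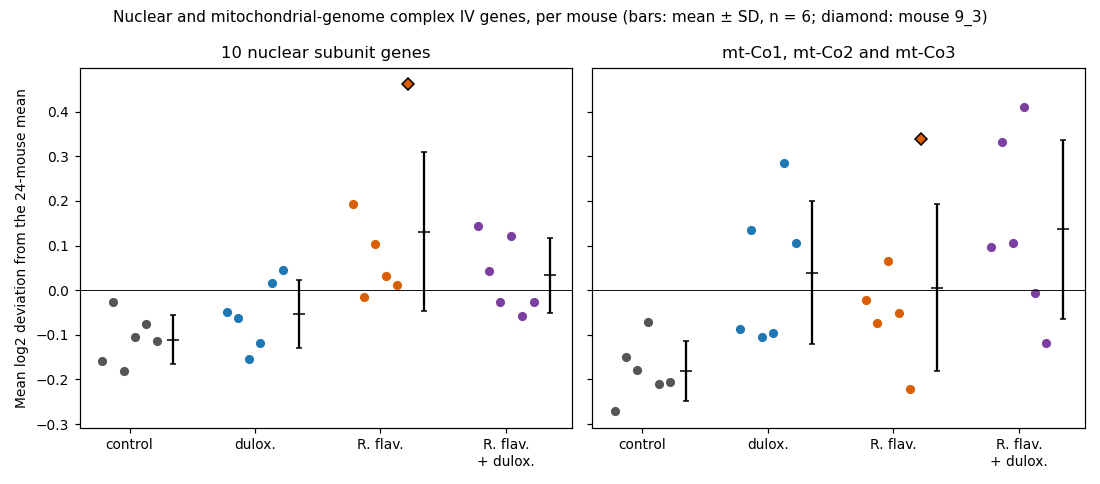
Mean log2 deviation from the 24-mouse mean (y axis) per mouse in the 4 groups (x axis), for the 10 nuclear subunit genes on the left and *mt-Co1*, *mt-Co2* and *mt-Co3* on the right, with the mean and SD of 6 mice. The nuclear group means run from -0.11 in controls to 0.13 after *R. flavefaciens*, and the mitochondrial ones from -0.18 in controls to 0.14 after both treatments.

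Tissue isoforms of the members were at or near the lower limit of the table. *Cox4i2*, the isoform known from lung and from low oxygen, had 15.0 ± 3.2 normalized counts in controls, *Cox6a2*, the isoform of heart and skeletal muscle, 20.8 ± 6.8, and *Cox6b2*, the isoform of testis, 10.4 ± 2.8 (SD, n = 6). After *R. flavefaciens*, *Cox6a2* had 30.1 ± 8.1 and a log2 fold change of 0.53 (SE 0.19, adjusted p = 0.144 from limma). *Cox7a2l*, which links complexes III and IV into supercomplexes, had 0.22 (adjusted p = 0.0727 from limma), and *Ndufa4*, now counted to complex IV, had 0.21 (adjusted p = 0.0795 from limma). The list holds 9 genes, of which 5 were measured, and none of these passed the adjusted threshold of limma in any comparison. With a trend on transcript length removed, its median went from 0.22 to 0.089 after *R. flavefaciens*. After both treatments it went from 0.15 to 0.059, and after duloxetine from 0.040 to -0.025. DESeq2 on recovered reads called *Cox7a2l* and *Ndufa4* after *R. flavefaciens* and in the averaged comparison.

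Limma called no gene of the other respiratory chain lists in any comparison, and neither did edgeR. DESeq2 on recovered reads called 14 of 36 complex I, 4 of 9 complex III, 7 of 17 ATP synthase and 2 of 21 assembly genes after *R. flavefaciens*, all higher, beside 488 of all 14974 genes. After *R. flavefaciens* the 36 nuclear complex I genes had a median log2 fold change of 0.19, and 26 of them were higher at an unadjusted p under 0.05, a level that 8.86% of all genes reached. The median was also 0.19 for the 9 complex III genes, with 5 higher, and 0.19 for the 17 ATP synthase genes, with 15 higher. *Cycs*, which encodes cytochrome c, had 0.14. The 21 assembly and copper factors of complex IV had a median of 0.051, with 5 higher at this level, among them *Cox14* and *Surf1*. The 10 transcription regulators of respiratory genes had a median of -0.064, with 2 lower at this level, *Yy1* (-0.098) and *Ppargc1b* (-0.26), beside 10.8% of all genes. After both treatments the medians were 0.078, 0.061 and 0.058 for complexes I and III and ATP synthase, beside 0.14 for the members, and after duloxetine 0.039, 0.019 and 0.030, beside 0.042. With the length trend removed, the medians of complexes I and III and ATP synthase became 0.042, 0.0041 and 0.044 after *R. flavefaciens*, beside 0.062 for the members, and -0.011, -0.067 and -0.035 after both treatments, beside 0.029. Those of the assembly factors and the regulators became -0.0085 and 0.0032 after *R. flavefaciens*, and *Cycs* was still at 0.14. The regulators' median went from -0.069 to -0.061 after both treatments and from -0.044 to -0.040 after duloxetine. The difference between complex IV and these lists was not tested.

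Transcript length moved with these values. The members' transcripts are short, from 503 to 1001 bases with a median of 632, while the median of all tested genes is 3021 bases. Other genes of 503 to 1001 bases, 821 in number, had a median log2 fold change of 0.16 after *R. flavefaciens*, 0.10 after both treatments and 0.054 after duloxetine. Genes of 8 kb and more, 768 in number, had -0.17, -0.072 and -0.027. Of the other genes as short as the members, 34.0% were higher after *R. flavefaciens* at an unadjusted p under 0.05. This share was 16.0% after both treatments, 4.63% after duloxetine and 28.4% for *R. flavefaciens* averaged over duloxetine. When a smooth trend on length was taken out of each mouse's values, the members' median became 0.062 after *R. flavefaciens*, 0.029 after both and -0.028 after duloxetine. *Cox8a* was then higher by 0.18 on the log2 scale both after *R. flavefaciens* (adjusted p = 0.136 from limma) and after both treatments (adjusted p = 0.0314 from limma), and *Cox5a* had -0.051 after *R. flavefaciens*.

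**Figure D4:**
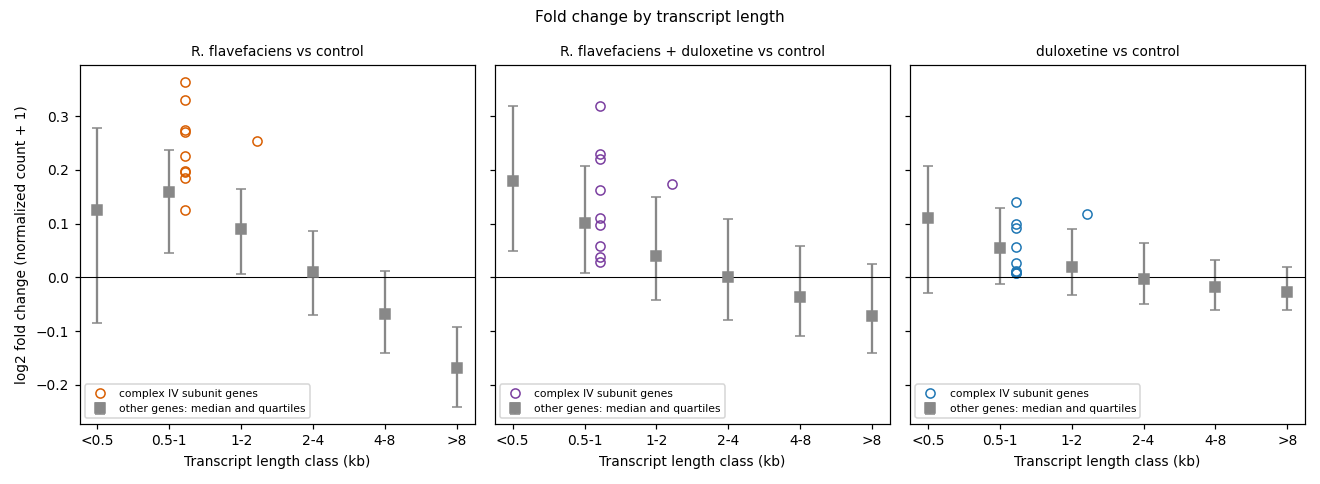
Log2 fold change against control (y axis) by class of transcript length in kb (x axis), with squares and bars for the median and quartiles of the other tested genes and open circles for the 10 complex IV subunit genes. After *R. flavefaciens* the class medians of the other genes fall from 0.16 at 0.5 to 1 kb to -0.17 above 8 kb, and most members lie above the median of their class.

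The same relation was seen mouse by mouse. For each mouse, the Spearman rho between transcript length and log2 deviation was taken over the genes outside the members. It was 0.20 ± 0.059 in controls, 0.077 ± 0.13 after duloxetine, -0.14 ± 0.27 after *R. flavefaciens* and -0.025 ± 0.10 after both (SD, n = 6). Mouse 9_3 had the lowest rho of the 24 mice, -0.55, and the highest mean of the members, 0.46 on the log2 scale. Mouse 7_2 was next on both measures, with -0.31 and 0.19. The part of transcript length in the complex IV values was not tested beyond these numbers.

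**Figure D5:**
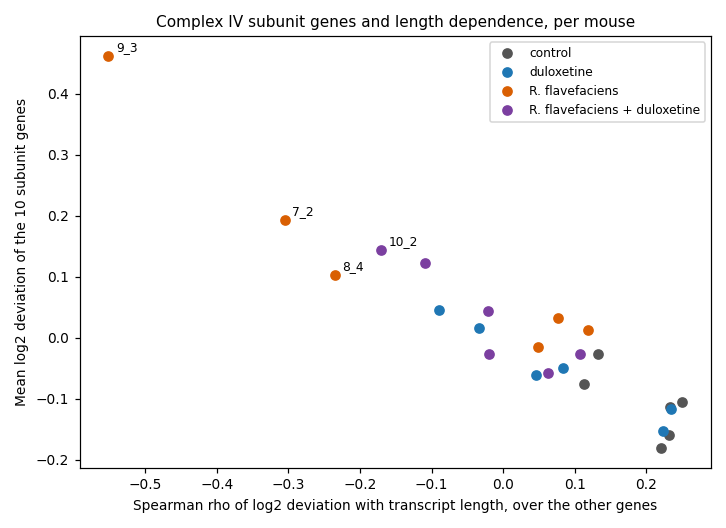
Mean log2 deviation of the 10 complex IV subunit genes (y axis) against the Spearman rho between transcript length and log2 deviation over the other genes (x axis), with 1 point per mouse coloured by group. Mouse 9_3 lies at -0.55 and 0.46 and mouse 7_2 at -0.31 and 0.19, while the 6 controls have rho from 0.11 to 0.25.

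The tissue label was checked on marker genes. The 5 excitatory neuron markers summed to a median of 82892 normalized counts in controls, led by *Camk2a*, and those of inhibitory neurons to 9574, led by *Gad1*, and none of these genes was at 0 in any mouse. Their median log2 fold changes after *R. flavefaciens* were -0.068 and 0.16, with 0 and 3 of 5 higher at an unadjusted p under 0.05. In the same order 1 and 0 were lower. Of all tested genes, 8.86% were higher and 10.8% lower at this level. The medians of 5 markers each of astrocytes, oligodendrocytes and endothelial cells were 0.12, 0.13 and 0.10, with none higher at this level. After both treatments the 5 lists had medians of -0.12, 0.039, 0.16, 0.12 and 0.17 in the same order. Here 0, 1, 2, 0 and 2 were higher at this level, beside 8.08% of all tested genes. The oligodendrocyte sums varied widely among mice of every group. They ran from 12751 to 35264 in controls, 13758 to 42050 after duloxetine, 10866 to 42275 after *R. flavefaciens* and 10545 to 47815 after both. Markers of other sources were also summed, and limma called none of them at an adjusted p under 0.05 in any comparison. The 5 blood genes, led by *Hbb-bs*, summed to 278 to 448 in controls, 289 to 984 after duloxetine, 418 to 988 after *R. flavefaciens* and 275 to 1090 after both, and their median log2 fold changes against control were 0.30, 0.75 and 0.78, with 0, 4 and 5 of the genes higher at an unadjusted p under 0.05. The 5 microglia genes, led by *Csf1r*, had medians of 0.19, 0.18 and 0.20 in the same order, with 4, 3 and 4 higher at this level. The share of all tested genes higher at this level was 2.20%, 8.86% and 8.08%. Of 5 choroid plexus genes 3 were in the table, and they summed to 39.2 to 64.2 in controls and 25.5 to 791 after *R. flavefaciens*, with the highest sum in mouse 8_4. In controls *Kl* was the most abundant of the 3, with a mean of 44.3 in a mean sum of 51.9. After *R. flavefaciens* its mean was 46.55 in a mean sum of 191. *Folr1* and *Kcnj13* were not among the measured genes, and 1 of the 3 was at 0 in some control and *R. flavefaciens* mice. Mouse 8_4 also had the highest sum of striatum markers, 3620 against 849 to 1654 in the other 5 mice of its group. In the combined group mouse 11_4 had the highest striatum sum, 2138, beside a group median of 1245. Without mouse 8_4 the members' median log2 fold change of *R. flavefaciens* against control was 0.25, with 0 members called and an adjusted p of 0.0599 for *Cox8a* from limma. DESeq2 on recovered reads called *Pvalb*, *Sst* and *C1qa* of all these markers after *R. flavefaciens* and *C1qa* after both treatments. The part of these other cell types in the complex IV values was not tested.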

How the data were processed

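Poly(A) RNA of the mPFC was sequenced in 24 mice. According to the methods, the authors mapped reads to GRCm38.p5 with TopHat2. The submitters' processing notes name TopHat2 2.1.0, Bowtie2 2.2.6, DESeq2 1.18.1 and mm9. Gene positions in the table equal those of GENCODE vM21 on GRCm38 for 92.4% of genes. The deposited signal values are gene counts that the authors divided by 1 size factor per mouse. At least 99.97% of non-zero values in each column were whole multiples of 1 step, within a tolerance of 0.0051, and dividing by it gave the recovered reads. No value column was left out. The counting program and its strand setting are not given in the sources used here.

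Values were tested as log2(normalized count + 1) with limma 3.58.1 in R 4.3.3, with a trended prior and all 24 mice in 1 fit, for the 14974 genes whose mean reached 10. All tests were two-sided, with Benjamini-Hochberg adjustment over the tested genes of each comparison, and fold changes are on this scale. Single members were compared by exact permutation tests over 924 groupings of 6 and 6 mice, which were run for 50 combinations of member and comparison. The exact p-values were not adjusted. Transcript length and GC content came from 1 GENCODE transcript per gene, and a loess trend (span 0.3) was removed per mouse as an alternative. Near-identical copies were sought with blastn 2.17.0 at 90% identity over 50% of the transcript, and of the copies found for *Cox5a*, *Cox6a1* and *Cox7c* (1 each) 0 were in the table. The alternatives were a fit of 2 groups at a time, a pseudocount of 0.1, a minimum mean of 50 or none, rescaling to the 75th percentile, quantile normalization, trends on length and GC, the first label number as a random block, edgeR 4.0.16 and DESeq2 1.42.0 on recovered reads, an adjusted p under 0.1 and leaving out each mouse. The length trend without respiratory and ribosomal genes was added after seeing the data. Python 3.11.15, numpy 2.4.6, pandas 2.3.3, scipy 1.17.1 and matplotlib 3.10.9 were used. The limma step was run on simulated counts, drawn for each gene on its own, without a length trend and with larger changes than the members had. That run does not test limma for correlated genes or small changes as seen here.

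The members, gene lists and tests were chosen with earlier results of these data known. All 10 members were named. Values of every mouse were given for members with an adjusted p under 0.05 and for the 2 largest and 2 smallest differences between *R. flavefaciens* and control. Companion genes were given by counts and medians, with isoforms and *mt-Co1* to *mt-Co3* named, together with the 5 genes most correlated with the members' mean, and *Cox14*, *Surf1*, *Yy1* and *Ppargc1b* were named after their values were seen. The labels do not say what the first number of a mouse's label stands for, and it never crosses groups.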

Additional observations from a re-analysis of the deposited data

Results flagged for a closer look

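Of the 40 combinations of member and group, 4 held a mouse far from the other 5, and all 4 were mouse 9_3 of the *R. flavefaciens* group. Its gap to the next mouse, divided by the range of the group, was above Dixon's critical value of 0.625 for 6 samples. Chance flags about 1 in 20 groups, and the members are correlated, so these are not separate events. *Cox4i1* had 6140 normalized counts in this mouse, with the next mouse at 4755 and a ratio of 0.678. *Cox6b1* had 2346, with the next at 1814 and a ratio of 0.701. *Cox6c* had 2431, with the next at 1945 and a ratio of 0.674. *Cox8a* had 4603, with the next at 3798 and a ratio of 0.667. The share of the 10 members in all normalized counts, 0.206%, and the Spearman rho with transcript length, -0.55, were also those of this mouse, as given above.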

How the results depend on the processing

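With mice left out 1 at a time, the members' median log2 fold change stayed between 0.17 and 0.27 for *R. flavefaciens* against control, 0.11 and 0.15 for both treatments against control, 0.023 and 0.065 for duloxetine against control, 0.051 and 0.094 for the combined against the duloxetine group, -0.13 and -0.035 for the combined against the *R. flavefaciens* group, -0.18 and -0.075 for the interaction, and 0.12 and 0.17 for *R. flavefaciens* averaged over duloxetine. The number of members called ranged from 0 to 6, from 0 to 2 and from 0 to 4 in the first, the second and the averaged comparison. Of the *R. flavefaciens* mice, leaving out 8_3 or 9_2 gave 6 calls against control, leaving out 9_1 gave 3, beside 427, 616 and 239 calls over all genes, and leaving out 7_2, 8_4 or 9_3 gave 0. Leaving out any control mouse but 2_1 gave 0 calls there. The averaged comparison had 4 calls without 8_3, 3 without 9_2, 2 without 9_3, beside 135, 69 and 14 over all genes, and 0 without the duloxetine mouse 5_4. Comparing both treatments with control, 2 members were called without 9_3, beside 123 of all genes, and 0 without any 1 of the controls, of 10_2, 11_3, 11_4 and 12_2, or of 5_3, 6_1, 6_2, 7_2 and 9_1. The sign changed for some single members, over the ranges -0.018 to 0.035 (*Cox4i1*), -0.0081 to 0.043 (*Cox5a*), -0.020 to 0.040 (*Cox6a1*) and -0.010 to 0.031 (*Cox7a2*) for duloxetine against control, -0.0031 to 0.036 (*Cox5a*) for the combined against the duloxetine group, and -0.071 to 0.026 (*Cox5b*), -0.085 to 0.028 (*Cox6c*) and -0.080 to 0.0098 (*Cox8a*) for the combined against the *R. flavefaciens* group.

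For *R. flavefaciens* against control the number of members called was 0 with only the groups compared, 0 with either length trend removed, 3 with the random block, 7 with DESeq2 on recovered reads and 6 at an adjusted p under 0.1, beside 1.48%, 3.26% and 3.87% of all genes. In the averaged comparison it was 7 with DESeq2 and 4 at an adjusted p under 0.1, beside 2.95% and 1.34% of all genes, and for both treatments against control it was 2 with only the groups compared, beside 1.31%. DESeq2 gave no adjusted p for 4935 genes in the first of these comparisons and 8419 in the averaged one. Removing the length trend gave members' medians of 0.062, 0.029 and -0.028 for *R. flavefaciens*, both treatments and duloxetine against control, -0.039 for the interaction and 0.047 for the averaged comparison. The length trend fitted without respiratory and ribosomal genes gave 0.081, 0.038, -0.015, -0.053 and 0.057 in the same order. All other alternatives run left the medians within the SD of the control mice's mean over the members, 0.056, and the numbers of calls as they were.

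Removing the length trend turned the sign of single members. The log2 fold changes of *R. flavefaciens* against control became -0.051 for *Cox5a*. Those of both treatments against control became -0.065 for *Cox4i1*, -0.093 for *Cox5a*, -0.035 for *Cox6a1*, -0.015 for *Cox6b1* and -0.060 for *Cox7a2*. Those of duloxetine against control became -0.044 for *Cox4i1*, -0.051 for *Cox5a*, -0.060 for *Cox6a1*, -0.037 for *Cox6b1*, -0.019 for *Cox6c* and -0.049 for *Cox7a2*. The combined group against duloxetine had -0.021 for *Cox4i1*, -0.041 for *Cox5a* and -0.012 for *Cox7a2*, and against *R. flavefaciens* 0.023 for *Cox5b*, 0.0084 for *Cox6c* and 0.0055 for *Cox8a*. The interaction was 0.0091 for *Cox5a* and 0.028 for *Cox6c*, and the averaged comparison had -0.046 for *Cox5a*. With the length trend fitted without respiratory and ribosomal genes, the values in the same order of comparisons were -0.033 for *Cox5a*, then -0.057 for *Cox4i1*, -0.080 for *Cox5a*, -0.019 for *Cox6a1*, -0.0009 for *Cox6b1* and -0.049 for *Cox7a2*, then -0.037 for *Cox4i1*, -0.041 for *Cox5a*, -0.048 for *Cox6a1*, -0.026 for *Cox6b1*, -0.0032 for *Cox6c* and -0.039 for *Cox7a2*, then -0.020 for *Cox4i1*, -0.039 for *Cox5a* and -0.0095 for *Cox7a2*, then 0.016 for *Cox5b*, 0.0057 for *Cox6c* and 0.0014 for *Cox8a*, 0.0089 for *Cox6c* in the interaction and -0.036 for *Cox5a* in the averaged comparison. With the GC trend removed, *Cox8a* had 0.0024 for the combined against the *R. flavefaciens* group. Apart from the trends themselves, the cause of these changes was not tested.

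No paired analysis was possible because no mouse label is shared between groups. The first label number as a random block had a consensus correlation of -0.045 over 11 numbers. At 715 or more reads per member and mouse, counting error was at most 3.7% of a value.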
